A study of Mus musculus with 12 samples.

Results

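The peaks described here carried the highest levels of 5-hydroxymethylcytosine (5hmC) in the E14.5 mouse cortex. They were 757 of 47478 5hmC peaks (1.59%), and they lay nearest to 678 of the 12848 genes to which the peaks were assigned. They were chosen by their level itself, as every peak whose 5hmC level averaged over PP, DP, and neurons was 6.8 or more on the log2 scale, so that their high level, and every 5hmC value given for them, is a description with no test. The highest mean level was 10.28 and the median 7.16, against a median of 4.67 over all 5hmC peaks.

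Cells were sorted from the cortex of E14.5 embryos that were heterozygous for a Btg2 RFP and a Tubb3 GFP reporter, and these alleles were shared by all 3 cell types. PP, labelled as neuronal stem cells, were negative for both reporters, DP, labelled as neurogenic progenitors, were positive for RFP and negative for GFP, and neurons were positive for GFP. Sheared DNA of the cell types was barcoded, mixed, and pulled down together with reagents against 5-methylcytosine (5mC) or 5hmC, the methods known as MeDIP and hMeDIP. Each level is a mean over 3 biological replicates that the authors formed before deposition, as log2 of a read level that was scaled between libraries and not divided by the width of the peak. With 1 value per cell type there was no replicate spread to set a difference against, and no difference between cell types could be tested. A difference of at least 0.58, which is 1.5-fold, was counted as a gain or a loss.

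5hmC arises when Tet enzymes oxidise 5mC, the methyl mark that DNA methyltransferases place mostly on cytosines followed by guanine. It is abundant in the brain, where it is found in gene bodies and at enhancers, and it can be a step on the way to an unmodified cytosine or a mark that persists. A pull-down reports the density of modified cytosines in a fragment, so more cells with the mark and more modified cytosines per cell cannot be told apart.

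The tables hold no counts, and the depth behind a peak cannot be read from them. The deposited expression values, whose scale is not named, went with the labels. They are compared here between cell types within a gene, and a value under 50 or a sum over genes is given only as listed. Pax6, a transcription factor of progenitors, was at 25720.2, 15955.0, and 1211.6 in PP, DP, and neurons, Eomes, a factor of intermediate progenitors, was at 10187.6, 50496.7, and 3626.3, and Tbr1, a factor of deep-layer neurons, was at 419.6, 6348.3, and 39085.4. Tubb3 itself was at 3814.4, 25259.3, and 105657.4. Summed expression of 11 microglia and blood cell genes was 1190.3, 907.7, and 499.9 in PP, DP, and neurons, that of 15 endothelial, mural and meningeal genes was 3021.9, 969.9, and 330.8, and none of these genes was at 0 in every cell type. The part of such cells in the levels of the peaks was not tested.

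Sequence of the genome was at hand only for windows from 250 bases before to 50 bases after gene starts (RefSeq, GRCm38.p6, the assembly called mm10). Of the 757 peaks, 4 overlapped such a window (0.528%), against 385 of all 5hmC peaks (0.811%). The 2 longer overlaps are shown because they are parts of the highest 5hmC peaks that lie at annotated starts, and the others, of 2 bases at Gm12786 and 18 bases at Gm38867, are left out as too short. Every CG dinucleotide, the usual site of both marks, is in capitals.
Prpsap2, chr11:61762202-61762338, minus strand: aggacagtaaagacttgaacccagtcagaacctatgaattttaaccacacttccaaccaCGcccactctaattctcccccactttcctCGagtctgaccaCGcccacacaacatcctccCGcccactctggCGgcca
Exoc2, chr13:30950517-30950548, minus strand: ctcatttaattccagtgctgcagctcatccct
The 137 bases at Prpsap2, a gene for a protein associated with phosphoribosyl pyrophosphate synthetase, held 5 CG dinucleotides, and the whole window held 17, against a median of 7 over all 32851 windows. The 5hmC level of this peak was 7.36, 7.34, and 6.99 in PP, DP, and neurons. The 32 bases at Exoc2, a subunit of the exocyst, held 0 CG dinucleotides, as did its whole window. The peak there, whose assigned nearest gene was Hus1b, had levels of 6.98, 6.90, and 6.76 and extended beyond the window.

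The highest levels were found in part close together, since 5 of the 12 highest peaks lay at the Btg2 and Chit1 locus or at Sfi1. The top peak lay inside Cdk5rap2, a centrosomal protein that is mutated in primary microcephaly, at chr4:70378131-70378238 (mm10, as deposited), 32.3 kb from the start of the gene. Its 5hmC level was 10.42, 10.33, and 10.10 in PP, DP, and neurons. The second, nearest to Gm11400 and inside Sfi1 by the RefSeq annotation, was at 9.86, 9.75, and 9.66. No other peak reached a mean of 9, and in both of these the level fell in small steps from PP to neurons.

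The next highest peaks were both upstream of Btg2, an antiproliferative gene that marks progenitors committed to neurogenesis and whose reporter defined DP. At 4.19 kb upstream (chr1:134083227-134083389) the level was 8.71, 8.89, and 9.14 in PP, DP, and neurons, and at 14.8 kb upstream (chr1:134093840-134093983) it was 8.26, 8.56, and 9.11. These were the only peaks among the 12 highest in which neurons stood above DP and DP above PP. In the other 10, neurons were the lowest of the 3 cell types. Among these, the peak inside Chit1, a chitinase gene next to Btg2, was at 8.72, 8.66, and 8.44, that at S1pr3, a receptor for sphingosine-1-phosphate, was at 8.63, 8.38, and 8.22, and that at Fcgr3, an immunoglobulin receptor of myeloid cells, was at 8.46, 8.34, and 8.20. Peaks at 2610002J02Rik, Sh3tc2, Moxd1, Oas2, and Gm11399 completed the 12, with mean levels from 8.13 to 8.45. Several of these genes were listed at low expression values, with Chit1 at 3.2, 2.2, and 1.7, Fcgr3 at 12.4, 4.9, and 1.2, and Oas2, an interferon-induced enzyme, at 5.7, 0.9, and 0.8.

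**Figure D1:**
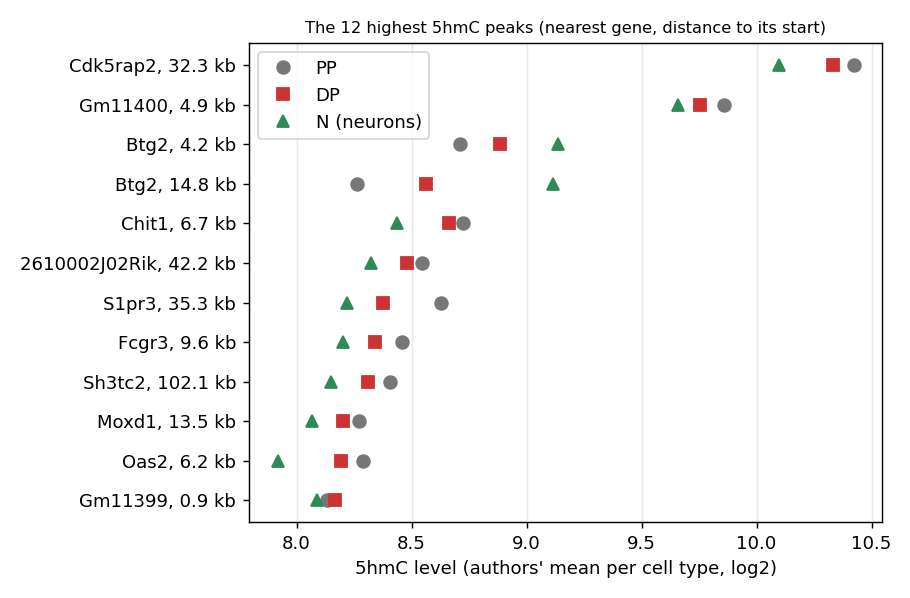
5hmC level (log2, the authors' mean per cell type) of the 12 peaks with the highest mean, each named by the nearest gene and the distance to its start; gray circles are PP, red squares DP, and green triangles neurons. The 2 Btg2 peaks rise from PP to neurons (8.71 to 9.14 and 8.26 to 9.11), and neurons are lowest in the other 10.

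At the limit, the lowest peaks inside were nearest to Ano1, a chloride channel, with a mean of 6.804, Fam124a with 6.803, and Nfatc1 with 6.802. The highest outside were nearest to Tcte1 with 6.7998, Gm15387 with 6.7992, and Cdh22 with 6.7984. The limit thus cuts through a continuous range, and 1039 further peaks (2.19%) lay between 6.3 and 6.8. Widths were much alike, with a median of 160 bp in the highest peaks and 164 bp over all peaks.

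Most of the highest peaks differed little between cell types and were slightly lower in neurons. Because levels were scaled between libraries, such a difference is relative and is not a measure of absolute loss of 5hmC. The median level was 7.24, 7.16, and 7.08 in PP, DP, and neurons, whereas over all peaks it was 4.72, 4.71, and 4.75. The range over the 3 cell types had a median of 0.26, against 0.49 over all peaks, and it reached 0.58 in 20 of the 757 (2.64%), against 40.0% of all peaks. The level was highest for 513 peaks in PP (67.8%), for 159 in DP (21.0%), and for 85 in neurons (11.2%), while the shares of all peaks were 38.7%, 25.7%, and 35.6%. It fell from PP over DP to neurons in 429 peaks (56.7%), against 26.3% of all, and rose along that line in 48 (6.34%), against 23.9%.

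From PP to DP, 0 of the highest peaks gained and 0 lost 1.5-fold, where 11.3% of all peaks gained and 4.84% lost. From DP to neurons 1 gained and 3 lost, where 15.9% of all peaks gained and 8.00% lost. From PP to neurons 13 gained (1.72%) and 6 lost (0.793%), against 20.4% and 11.1% of all peaks. The difference from PP to neurons was below 0 in 653 peaks (86.3%), with a median of -0.22. It was below 0 in 56.1% of all peaks, with a median of -0.08, and in 72.3% of the 1039 peaks between 6.3 and 6.8, with a median of -0.17. Taken relative to the median of all peaks, 585 of the highest peaks (77.3%) were lower, against 63.8% of the peaks between 6.3 and 6.8. On that scale 16 gained (2.11%) and 2 lost (0.264%), where 22.2% of all peaks gained and 7.91% lost.

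The size of the differences went with the level across the whole table. In the lowest 10% of peaks by mean level the median range over cell types was 1.69, and in the highest 10% it was 0.31. Peaks just below the limit were intermediate, with a median range of 0.30, and 60 of the 1039 (5.77%) gained and 22 (2.12%) lost from PP to neurons. How far counting error at low levels widens the range there was not tested.

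**Figure D2:**
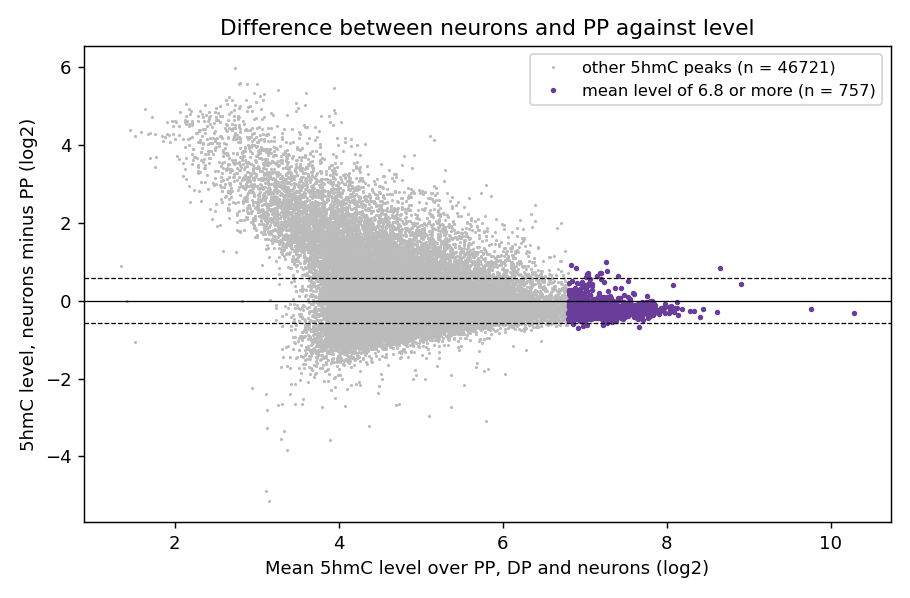
Difference of the 5hmC level between neurons and PP (log2, y axis) against the mean level over the 3 cell types (log2, x axis) for each peak; purple points are the 757 highest peaks, gray points all others, and dashed lines mark 1.5-fold. The purple points lie between -0.69 and 0.98, in the narrow end of a cloud that reaches from -5.14 to 5.99.

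The 13 gains had their largest value at Smad7, an inhibitor of Tgfb and Bmp signalling, where the peak inside the gene was at 6.801, 7.21, and 7.79 in PP, DP, and neurons, a difference of 0.98. At the Btg2 peak 14.8 kb upstream the difference was 0.85. A peak in 1500002O20Rik (Smg9 in RefSeq, a factor of nonsense-mediated decay) was at 6.52, 6.79, and 7.35, and a peak in 8430427H17Rik (Nol4l in RefSeq) at 6.90, 7.25, and 7.67. All 13 rose at both steps, with DP between PP and neurons. The expression of the nearest gene was at least 1.5-fold higher in neurons for 5 of the 13 genes and lower for 2, where 31.7% of the genes of all peaks were higher and 31.6% lower. Hpca, a neuronal calcium sensor, rose in expression from 57.1 over 887.9 to 3129.0, and Dusp4, a phosphatase of MAP kinases, from 858.9 over 5606.2 to 15824.3, whereas Smad7 went from 1284.1 over 1245.2 to 642.7.

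The 6 losses reached less far, from -0.61 to -0.69. The peak in Rbfox1, a neuronal splicing factor, was at 7.18, 7.10, and 6.49 in PP, DP, and neurons, and its fall lay between DP and neurons. The peak in Bmpr1b, a Bmp receptor, was at 7.999, 7.66, and 7.33, that in Ptprm, a receptor phosphatase that mediates cell adhesion, at 7.19, 7.21, and 6.55, and that upstream of Frmd4b at 7.59, 7.12, and 6.96. The peak assigned to Cntn2, an axonal adhesion molecule, lay 64.8 kb from its start and inside the neighbouring gene Nfasc, and was at 7.37, 6.98, and 6.75. The sixth was in Zfp423, at 7.18, 6.83, and 6.57. Expression was higher in neurons for 4 of the 6 genes and lower for 1, a count too small to set against the 31.7% and 31.6% of all genes. It rose for Rbfox1 from 53.6 to 6776.4 and for Cntn2 from 1146.4 to 226628.4, and it fell for Bmpr1b from 1745.1 to 781.5.

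A 5mC peak was found at 191 of the highest 5hmC peaks (25.2%), against 14.2% of all 5hmC peaks, when an overlap of at least 1 bp was counted. The share was 22.7% in the peaks between 6.3 and 6.8, and it was 23.4% in the lowest 10% of peaks by mean level. The 5mC level there was moderate, with a median of 4.94, 4.89, and 4.75 in PP, DP, and neurons, against 5.21, 5.15, and 4.82 at all shared peaks. Across the 191 sites the mean levels of both marks were hardly related (Spearman's rho 0.06, over sites of the same libraries, which are not independent replicates). Since these sites were chosen by their 5hmC level, its range is cut, and this value alone says little of the marks. Over all 6733 shared peaks rho was 0.03, and in those between 6.3 and 6.8 it was -0.07. The level of 5mC also reached 6.8 at 17 of the 191 (8.90%), against 6.97% of all shared peaks. A site with no 5mC peak is not thereby free of 5mC, since only peaks are listed.

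The highest 5mC level was again at the Cdk5rap2 peak, with 10.81, 10.82, and 10.91 in PP, DP, and neurons. Next came a peak near Gm11668 on chromosome 11, with 10.35, 10.35, and 10.44, then the Chit1 peak 22.4 kb into the gene, with 8.07, 7.95, and 7.72, and a peak in Sfi1, with 7.39, 7.64, and 7.90. At the other end, the 5mC level was 3.21, 4.26, and 3.54 at Smap1 and 3.51, 2.78, and 3.76 at Dhcr7, the last enzyme of cholesterol synthesis. At Gm13161 it was 1.70, 4.14, and 3.78 in PP, DP, and neurons. That difference of 2.08 was the largest of 6 gains of 5mC (3.14%, where 1.86% of all shared peaks gained). It rests on the low level in PP, and the part of counting error in it was not tested.

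Losses of 5mC from PP to neurons were counted at 41 of the 191 sites (21.5%), against 31.9% of all shared peaks. They were more frequent where 5hmC rose. Of the 13 peaks that gained 5hmC, 8 had a 5mC peak and all 8 lost 5mC, by a median of -1.75, while 55.7% of all 5hmC gains with a 5mC peak lost 5mC. Where 5hmC rose by less than 0.58, 13 of 37 sites lost 5mC (35.1%, against 20.1% over all peaks), and where it did not rise, 20 of 146 did (13.7%, against 12.4%). Of the 6 peaks that lost 5hmC, 0 had a 5mC peak, where 25.2% of the 757 did, so that nothing can be said of 5mC there.

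The 3 largest losses of 5mC were at such sites. Upstream of Dusp4, 5mC was at 4.06, 3.42, and 0.9995 in PP, DP, and neurons, while 5hmC was at 6.74, 6.98, and 7.42. All 3 of these 5mC levels are below the median of 4.97 over all 5mC peaks. The part of counting error in the size of this loss was not tested. In Vstm2l, at 678 bp from the start of the gene, 5mC was at 8.22, 7.67, and 5.71, and 5hmC at 7.07, 7.47, and 7.69. At the Btg2 peak 14.8 kb upstream, 5mC was at 6.57, 5.65, and 4.48. In each the marks moved in opposite directions at both steps, and 5mC fell more between DP and neurons than between PP and DP. Expression rose along the same line for Dusp4 and for Vstm2l (1.2, 5.8, and 281.7), whereas Btg2 was highest in DP (19335.1, 38556.3, and 7483.9).

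**Figure D3:**
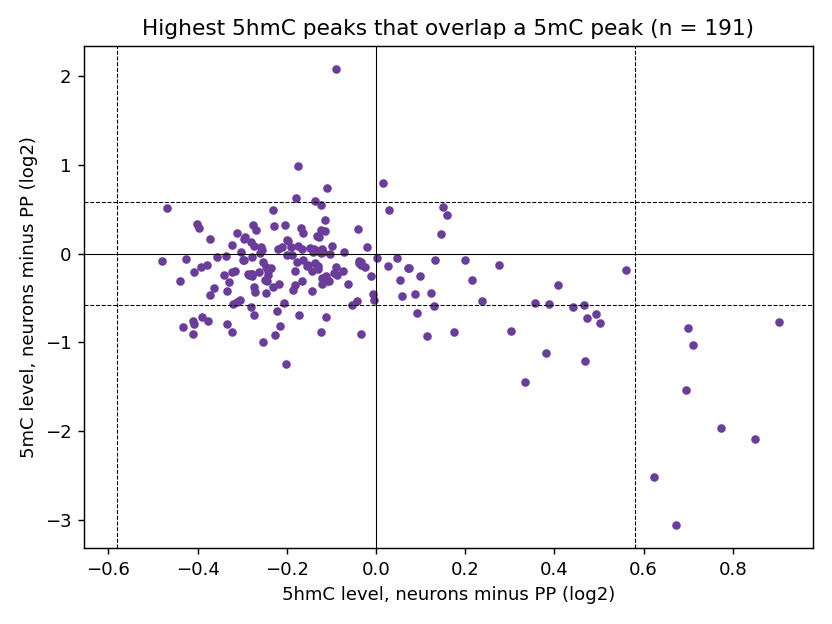
Difference of the 5mC level (log2, y axis) against that of the 5hmC level (log2, x axis), each neurons minus PP, for the 191 highest 5hmC peaks that overlap a 5mC peak; dashed lines mark 1.5-fold. The 8 points to the right of 0.58 all lie below -0.58, and the point at the top, with a 5mC difference of 2.08, is the Gm13161 site.

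Most of the highest peaks had no other of them within 100 kb, and most lay away from gene starts. Of the 757, 583 (77.0%) had no other within 100 kb, 58 pairs did, and 58 peaks formed 13 clusters of 3 or more. By the deposited annotation 283 were inside a gene (37.4%, against 36.2% of all), 310 upstream (41.0%, against 42.1%), and 163 downstream (21.5%, against 21.4%). The median distance to the nearest start was 26.3 kb, against 27.2 kb, and 19 peaks (2.51%) lay within 1000 bp of one, against 3.21%. Each of the shares by place and distance differed from that of all peaks by little.

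The 6 highest of the 19 peaks near a start were at Gm11399, 3110070M22Rik, Spink2, Gm17190, Chid1, and Vstm2l, with mean levels from 7.41 to 8.13. Of these genes Vstm2l, with the gain of 5hmC and loss of 5mC described above, and Chid1, from 1063.3 in PP to 1889.2 in neurons, were more expressed in neurons, as was 3110070M22Rik at low values, from 19.1 to 32.5, while Gm11399 fell at similar values, from 25.2 to 14.1. Spink2 and Gm17190 were at or below 8.3 in every cell type.

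In the RefSeq annotation 488 of the peaks lay in a gene (64.5%, against 64.2% of all), and for 188 of these (38.5%, against 41.2%) that gene was another than the nearest start to which the peak was assigned. The gene named for a peak is therefore its nearest start and not always its host. On the X chromosome there were 6 of the highest peaks (0.793%), where 2.13% of all peaks lay. The 4 highest of them were at Atp2b3, a calcium pump of the plasma membrane (7.75, 7.40, and 7.43 in PP, DP, and neurons), Pnck (7.41, 7.51, and 7.28), BC023829 (7.31, 7.24, and 7.03), and Gm2174 (7.20, 7.19, and 7.03). The sex of the embryos is not given in the sources used here. Among the autosomes the share of peaks that were among the highest ran from 0.620% on chromosome 19 to 2.35% on chromosome 7.

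The cluster with the largest number of these peaks lay on chromosome 11 over 43.4 kb at Gm11399, Gm11400, and Sfi1, a gene for a centrosomal protein. There 10 of 17 5hmC peaks were among the highest, and 8 of 9 5mC peaks also reached 6.8. All 10 were inside Sfi1 by RefSeq and all were lower in neurons than in PP, by 0.05 to 0.56, where 86.3% of the 757 were lower. Whether reads of other copies of the sequence add to the levels here or at Cdk5rap2 was not tested, since no genome was used.

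The cluster at Btg2, Gm8618, and Chit1 held 6 of the highest peaks among 22 5hmC peaks over 67.9 kb. Besides those given above, a peak 13.3 kb downstream of the start of Btg2 was at 7.85, 7.79, and 7.81 in PP, DP, and neurons, a peak 12.3 kb from the start of Gm8618 at 6.84, 7.15, and 7.47, and the second Chit1 peak at 7.93, 7.95, and 8.34. From PP to neurons the level rose at 4 of the 6 and fell at 2, and 2 of the rises passed 1.5-fold.

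Since Btg2 and Tubb3 carried the reporters, both loci were set beside all other gene starts. Within 50 kb of the start of Btg2 there were 25 5hmC peaks with a median level of 6.06, of which 5 were among the highest. This median ranked 7 of 740 genes with at least 10 peaks, and the 6 ahead of it were 3 neighbours on chromosome 1 and 3 genes by the Sfi1 cluster. The 18 5mC peaks there had a median of 5.63, rank 249 of 2777 genes. At Tubb3, a tubulin of neurons, the order of the marks was turned. The 12 5hmC peaks had a median of 4.96, rank 257 of 740, and 1 of them was among the highest, assigned to Def8 and at 7.14, 7.23, and 6.85. The 22 5mC peaks had a median of 7.01, rank 4 of 2777, and 13 of them reached 6.8. The windows of Def8 and Mc1r, also on chromosome 8, had the same median and rank. Those of Tcf25, Gm39275, and Afg3l1 on that chromosome ranked 8, 9, and 10. Windows of genes that lie close together can hold the same peaks, so these ranks cannot tell Tubb3 from its surroundings. How the reporters were built and how many copies the embryos carried is not given in the sources used here, and the part of the reporters in these levels was not tested.

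**Figure D4:**
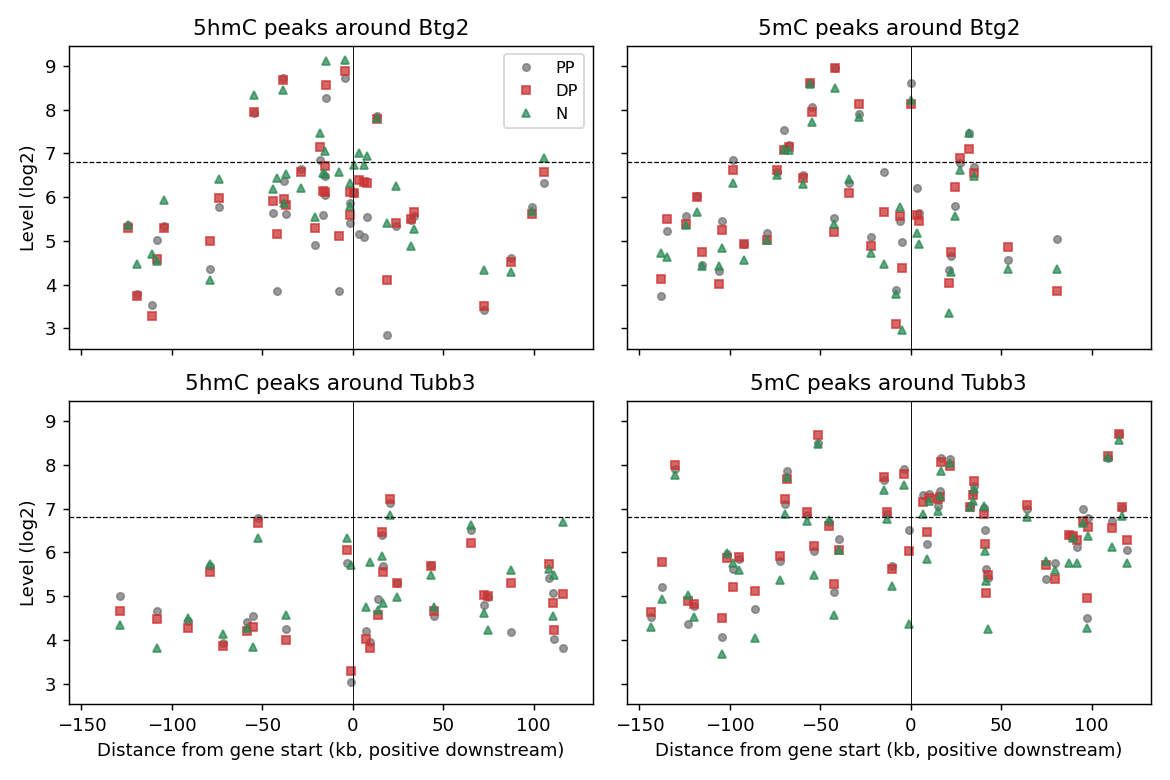
Levels (log2) of all 5hmC peaks (left) and 5mC peaks (right) within 150 kb of the starts of Btg2 (top) and Tubb3 (bottom), against distance from the start in kb along the direction of the gene; gray circles are PP, red squares DP, green triangles neurons, and the dashed line is the limit of 6.8. Around Btg2 the 5hmC peaks within 50 kb have a median of 6.06, and around Tubb3 the 5mC peaks within 50 kb have a median of 7.01.

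Some other genes were nearest to several of the highest peaks. Fam19a5 (Tafa5 in RefSeq), a secreted protein of the nervous system, was the nearest gene of 9 of the highest peaks out of 41, in groups of 5 and 4, with mean levels from 6.88 to 7.41 and expression from 1451.5 in PP to 2198.9 in neurons. Ccnd1, the cyclin D that drives progenitors through G1, was nearest to 3 of its 6 peaks, all between 159.3 and 167.5 kb upstream. Their levels were 7.94, 7.94, and 7.72, then 7.89, 7.78, and 7.67, and 7.68, 7.34, and 7.34, while Ccnd1 expression fell from 7630.2 in PP over 4160.5 in DP to 165.2 in neurons. The neighbouring gene Tpcn2 added 3. Gse1, Xylt1, and Rbfox1 each had 3, with all 3 inside the gene by RefSeq, and Znrf4, Ass1, and 6330403L08Rik had 3 each.

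The genes nearest to the highest peaks were expressed much like those of other peaks. Of the 678 genes, 247 (36.4%) were at least 1.5-fold higher in neurons than in PP, where 31.7% of all 12848 were, and 224 (33.0%) were lower, where 31.6% were. Values stayed below 50 in every cell type for 186 of them (27.4%), against 25.2%. The largest rises were those of Galnt9, an enzyme of O-glycosylation (1.1 to 571.5), Nos1, the neuronal nitric oxide synthase (44.6 to 10208.4), Drd1a, a dopamine receptor (1.5 to 549.7), and Cntn2. The largest falls were those of C230030N03Rik (292.4 to 0.6), Gas1, a coreceptor for hedgehog ligands (13227.5 to 104.0), Gna14, a G protein subunit (253.3 to 1.7), and Sox8, a Sox factor of glia and neural crest (5214.7 to 64.9). At these 8 genes the 5hmC level differed between PP and neurons by -0.63 to 0.03. It was lower in neurons at all 4 whose expression rose and at 3 of the 4 whose expression fell, as it was at 86.3% of the 757 peaks.

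Ion channel genes held the largest number of the highest peaks among 15 gene lists, 13 of their 550 5hmC peaks (2.36%, where 1.59% of all peaks were among the highest). The 3 top ones lay in Kcnk2, a potassium channel of the resting potential (7.75, 7.79, and 7.54 in PP, DP, and neurons), in Cacnb4, a calcium channel subunit (7.80, 7.86, and 7.36), and upstream of Cacng1 (7.69, 7.44, and 7.37). Of the 12 channel genes concerned, 11 were at least 1.5-fold higher in neurons, as were 78 of the 114 channel genes with any 5hmC peak (68.4%), and 12 of the 13 peaks had a lower level in neurons than in PP, as did 86.3% of the 757, the exception being that at Kcnj4 (6.71, 6.73, and 6.99). Kcnj5, for instance, rose in expression from 1.7 to 212.3 and Cacna1a from 304.6 to 5164.0. Among the 11, however, Cacng1, Kcnj12, Kcnj4, and Cacna1f stayed below 50 in every cell type, so their folds rest on low values. Neurotransmitter receptor and synapse genes held 8 of 541 (1.48%), led by Shank1, a scaffold of the postsynaptic density (8.19, 8.13, and 7.99), Syt2, a calcium sensor of vesicle release (7.98, 7.81, and 7.53), and Grm4, a glutamate receptor (7.63, 7.46, and 7.38). Expression rose in neurons for 5 of these 8 genes and fell for 0, as it rose for 73.5% of that list.

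Signalling genes of the Wnt, Shh, Fgf, Bmp and Tgfb pathways held 8 of 456 (1.75%). Receptors were Tgfbr2 (7.88, 7.79, and 7.77), Bmpr1b, and Fzd9, the intracellular transducers were Smad5 (8.05, 7.96, and 7.80), Smad3, and Smad7, and the ligands were Shh and Wnt7b. Expression fell for 5 of the 8 and rose for 2, where it fell for 39 of the 78 genes of the list. The rise of Shh rests on low values, from 0.4 in PP to 8.6 in neurons. Wnt7b, a ligand made by cortical neurons, rose from 1302.1 to 25349.9 while its peak went from 7.24 over 7.06 to 6.74. Cadherins and planar polarity genes held 7 of 365 (1.92%), with Pcdh15, Cdh4, and Prickle1 highest at mean levels of 7.10 to 7.25. Patterning homeobox genes held 5 of 255 (1.96%), of Msx1, a gene of the dorsal midline (7.62, 7.504, and 7.35 at the higher of its 2 peaks), Pax7, and Irx2. Pax7 and Irx2 were at or below 5.5 in expression in every cell type.

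Genes of the cortical lineage itself gave small counts in either direction from the share of all peaks. Progenitor genes held 3 of 128 (2.34%), all at Ccnd1, and neurogenic bHLH and intermediate progenitor genes held 4 of 85 (4.71%), of which 3 were at Btg2 and 1 at Prox1, a homeodomain factor whose expression peaked in DP (435.2, 3023.2, and 327.8) and whose peak was at 7.999, 8.08, and 7.65. Projection neuron identity genes held 0 of 119, and cytosine modification enzymes and readers held 0 of 64. Axon guidance genes held 3 of 448 (0.670%), at Plxna1, a semaphorin receptor (7.81, 7.82, and 7.57), Ephb2 (7.75, 7.60, and 7.73), and Epha2 (7.06, 6.97, and 6.802). Histone modifier and chromatin remodeller genes held 4 of 246 (1.63%), with Setd4, Brd3, and Kdm4b highest. Imprinted genes held 2 of 93 (2.15%), with Grb10 at 7.37, 7.05, and 7.34 and H19 at 7.41, 7.15, and 7.09, and the expression of both fell, by -4.40 and -3.92 on the log2 scale.

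Lists of other cell types held 3 of the peaks. Microglia and blood cell genes had 2 of 32 (6.25%), at Sfpi1, the factor PU.1 of myeloid cells (6.95, 6.999, and 7.08), and Runx1, a factor of blood formation (7.08, 6.96, and 6.65), with expression of at most 17.1 in any cell type. Interneuron and oligodendrocyte lineage genes had 1 of 28 (3.57%), at Sox8 (6.90, 6.84, and 6.74), and endothelial, mural and meningeal genes had 0 of 77. Shares of lists with so few peaks rest on 1 or 2 peaks each, and none was tested.

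**Figure D5:**
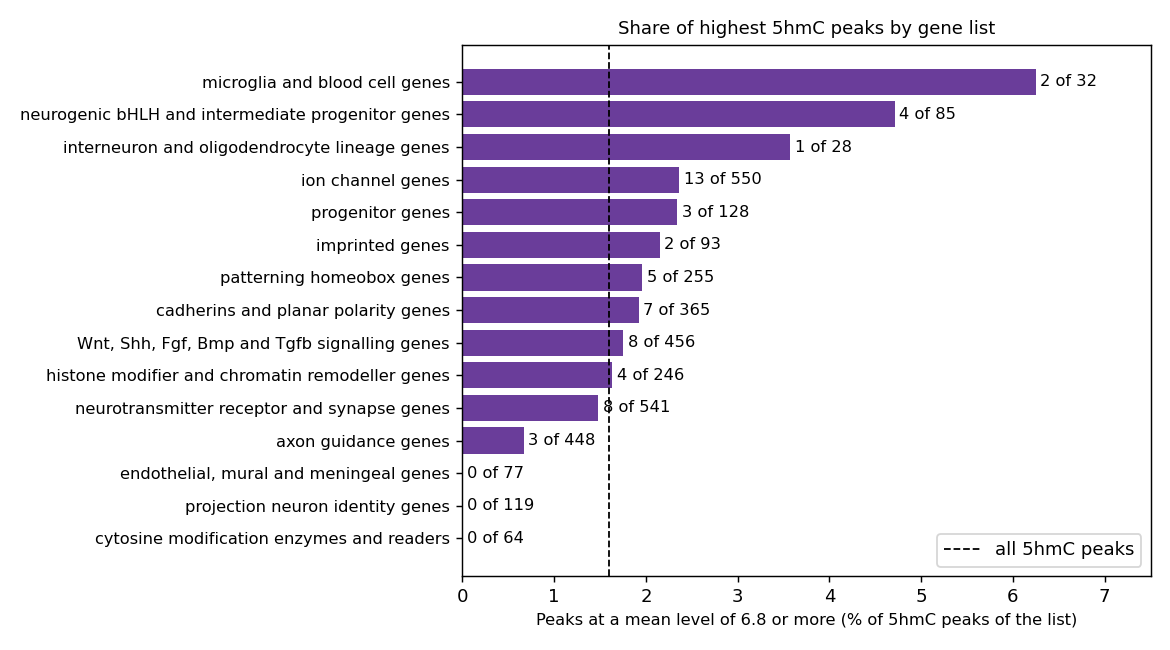
Share of the 5hmC peaks nearest to the genes of each list that were among the 757 highest (percent, x axis), with the number of such peaks of all peaks of the list beside each bar; the dashed line is the 1.59% of all 5hmC peaks. Ion channel genes have the most peaks (13 of 550), and the longest bar, of microglia and blood cell genes, rests on 2 of 32.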

How the data were processed

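MeDIP and hMeDIP tables of PP, DP, and neurons were used. The authors aligned 75-bp single reads to mm10 with BWA (0.7.8-r455 in the submitters' processing notes), called peaks with SICER 1.1, merged peaks found in all replicates, left out peaks overlapping repeats, normalised by TMM in DiffBind, averaged 3 biological replicates, and annotated peaks with HOMER 4.7. The deposited levels are log2 values. The deposited expression values and distances to the TSS were treated as scores, expression coming from an earlier RNA-seq study of the authors. Columns of the authors' own folds, p-values, expression changes and adjusted p-values were not used. The series lists 12 samples, 6 IP and 6 input, with no replicate separated. Input is not in the tables, depth per sample is unknown from them, and no confidence interval of a level was possible.

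Differences between cell types were computed from the deposited levels. Expression was compared as log2 of neurons over PP after adding a pseudocount of 1. Peaks of both marks were paired at an overlap of at least 1 bp, taking the longest overlap. Peaks were placed in RefSeq genes (GRCm38.p6). No row was filtered, and 0 of the highest peaks were listed more than once. The step that finds overlapping peaks was tested on simulated peaks with known overlaps. The peaks, gene lists and questions were chosen with earlier results of these data known, and no comparison was tested. Named genes were the 12 highest peaks, the 5 largest rises and falls, genes with 3 or more peaks, the 6 highest near a TSS, extremes of 5mC, the 3 highest per list, the 3 on either side of the limit, the 4 highest on X, and the 4 largest rises and falls of expression at values of at least 50. Of the 5 largest rises, 1 is not reported here. Other peaks of the gain, loss, cluster and locus passages, and further list members, were named after their values were seen. Alternatives were other limits, width scaling, centring, folds, windows, overlaps and pseudocounts. CG density and E-boxes within peaks were not analysed here. The software was python 3.11.15 with scipy 1.17.1, numpy 2.4.6, and pandas 2.3.3, and matplotlib 3.10.9 for figures.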

Additional observations from a re-analysis of the deposited data

How the results depend on the processing

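Of 88 values under alternative settings for 11 results, 77 stayed within the 95% interval of the main value (counts within 1.5-fold). That interval treats peaks or genes as if independent, which they are not, and serves only as a yardstick. A change of sign was possible only for the 5mC difference, and 0 were seen. Counting each peak once changed no value, and leaving out X removed few peaks, so staying within the interval was fixed in advance there. The cause of the other 11 moves, given next, was not tested beyond what each setting itself changes. At a fold of 2, 0 peaks gained and 0 lost (0%), where 13.1% and 1.76% of all peaks did. The share that lost 5hmC, 0.793%, was 0.339% when every cell type had to reach 6.8, beside 11.1% of all peaks. It was 0.264% when differences were centred on all peaks, with 7.91% of all peaks then lost. The share with a 5mC peak became 20.9% at an overlap of 50% of the peak, and that of all 5hmC peaks was not computed there. The 5mC difference of -0.20 became -0.028 when centred on all 5mC peaks. With a window of 5000 bp 12.7% lay near a start, against 14.8% of all peaks. With a pseudocount of 10, 32.3% of genes were higher and 27.7% lower in neurons. The shares over all 12848 genes were not computed at that pseudocount, so these 2 values cannot be set against them. The share with another such peak within 100 kb, 23.0%, was 27.6% at a limit of 6.6 and 10.3% within 20 kb. An alternative chosen after seeing the data left out 17 peaks at Btg2, Tubb3 and Sfi1 and kept every value within its interval. CG density and E-boxes were not run. Ranking by level per width kept 649 of the 757 peaks. The number of peaks has no value there, nor the X share without X. No paired analysis was possible because the levels are means over replicates, and no replicate could be left out. The tables give no read counts per peak, which limits all differences.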
